A study of Mus musculus with 13 samples.

Results

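The 9 chemokine receptor genes examined in mouse spleen leukocytes were Ccr2, Ccr6, Ccr7, Ccr9, Cxcr3, Cxcr4, Cxcr5, Cx3cr1 and Xcr1. Of the 45101 probe sets of the Affymetrix Mouse Genome 430 2.0 array, 17 were annotated to these 9 genes and to no other gene, and each gene was represented by its probe set with the highest mean over the 13 arrays. All 9 genes were among the 9391 genes with a signal of at least 50 on all arrays of at least 1 population, so none was lost to this filter. The arrays covered 6 populations sorted from the spleens of untreated wild-type C57BL/6 mice: plasmacytoid dendritic cells (pDCs), CD8α conventional dendritic cells (CD8α cDCs), CD11b conventional dendritic cells (CD11b cDCs), CD8 T cells and NK cells (n = 2 arrays for each of these) and B cells (n = 3). Dendritic cell (DC) arrays held RNA of 10 to 15 pooled mice, NK cell arrays of 6 to 10, B cell arrays of 3, 2 and 1, and each CD8 T cell array of 1 mouse. An age of 6 to 8 weeks was given for CD8α cDC replicate 1 and for both CD8 T cell arrays, an age of 6 weeks for B cell replicates 2 and 3, and none for the other arrays. B cell replicates 2 and 3 were described as follicular B cells and replicate 1 as B cells. No chemokine receptor was among the surface markers used in the sorts, which selected pDCs as lineage-negative CD11c+ 120G8 high cells, cDCs as lineage-negative CD11c high cells divided by CD8α and CD11b, and NK cells as NK1.1+ TCRβ- cells.

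Chemokine receptors are G protein-coupled receptors with which leukocytes follow gradients of chemokines, small secreted proteins that tissues and other leukocytes release. Binding of the ligand activates inhibitory G proteins, and this leads to integrin activation and directed movement. In the spleen such receptors place B cells in follicles and T cells and DCs in the T cell zones, and in other tissues they direct entry into the gut, the thymus or inflamed sites.

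Values are deposited MAS5 signals, given as mean ± SD over the arrays of a population, on the scale on which the trimmed mean of each array is 100. Signals under 20 were set to 20 before log2 transformation for the tests, so a fold over cells at this floor is relative to 20 and gives a minimum. Probe sets differ in how brightly they hybridise, and levels were therefore compared between populations within a gene and never between genes. The adjusted p-values are from limma with Benjamini-Hochberg adjustment over the 9391 genes, and for pairs of populations over the 9391 genes and the 15 pairs together. The methods describe the DC and NK cell duplicates as independent sorts, and the p-values measure the spread between these few arrays, whose number limits the precision. Arrays set to 20 add no spread to the estimate shared by all populations. For genes with populations at the floor, SE and p-values thus depend in part on the floor. Because these are bulk samples, fewer cells that express a gene and less RNA per cell cannot be told apart.

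Each list of population markers had its highest sum in the population it marks, and some listed genes were also high elsewhere. Of the lymphocyte lists, Gzma averaged 1629 and Eomes 823 in CD8 T cells, and Cd8b1 1191 and Cd79b 412 in pDCs. Of single markers, Siglech averaged 3326 in pDCs, Tlr3 1744 in CD8α cDCs, Ncr1 1344 in NK cells, Cd79a 2604 in B cells and Cd3d 3016 in CD8 T cells, and each was lower in the other 5 populations. Itgam, which encodes CD11b, averaged 166 in CD11b cDCs, 148 in NK cells and under 20 in the other 4. The pDC markers (5 genes) summed to 18650 to 22280 in pDCs and 2770 to 6698 in B cells, where Ly6d averaged 3608. The CD8α cDC markers (5 of 6 genes on the array) summed to 7343 to 7438 in CD8α cDCs and 3727 to 3922 in CD8 T cells, where Cd8a averaged 2514 and Itgae 1061. The CD11b cDC markers (4 of 5 genes on the array) summed to 2508 to 2690 in CD11b cDCs and 2395 to 2630 in pDCs, where Cd4 averaged 1406 and Sirpa 696, so the arrays of both overlapped in this sum. Array medians ranged from 13.5 to 20.8, and replicates correlated at 0.934 to 0.987 over the genes tested. The signals of sex-linked genes went against the sex labels on 3 arrays. B cell replicate 2, labelled male, had an Xist signal of 4272 and an Eif2s3y signal of 3.65, and the CD8 T cell arrays, labelled female, had Xist signals of 0.963 and 0.877 and Eif2s3y signals of 690 and 968. In the 10 pairs of populations without CD8 T cells, each with a test of all 9 receptors, 61 tests passed with all arrays and 62 without these 3. With all arrays, 23.7 to 49.0% of all genes tested passed in a pair of these, and the share without the 3 arrays is not given here. B cell replicate 1 stood apart in Jchain, a component of polymeric antibodies, at 7866 against 92.1 and 332 on the other B cell arrays, and the summed neutrophil marker signal (4 of 5 genes on the array) ranged from 81.6 to 1256 over the 3. The ratio of 3' to 5' GAPDH control signals was 23.9 and 11.2 on the NK cell arrays and 3.46 to 6.30 elsewhere. No scan day held both DC and lymphocyte arrays, so scan day and these families cannot be told apart. Sex is confounded nearly as much. All DC arrays had the female pattern of the sex-linked genes (Xist 1539 to 4503, Eif2s3y at most 8.51). All lymphocyte arrays but B cell replicate 2 had the male pattern (Xist at most 1.055, Eif2s3y 346 to 968). The part of sex in the differences between DCs and lymphocytes was not tested.

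Each population had a different combination of receptors. Ccr9 was highest in pDCs (4962 ± 120, n = 2), Xcr1 in CD8α cDCs (653 ± 28.5, n = 2), Ccr2 in NK cells (1276 ± 264, n = 2), and Ccr6 (1519 ± 229), Cxcr5 (1645 ± 630) and Cxcr4 (841 ± 64.9) in B cells (n = 3). For these 6 of the 9 receptors the highest population was above each of the other 5, a pattern found in 25.0% of all genes tested. The signal minimum favoured this pattern in advance for a gene that is low in most populations. Xcr1 passed the minimum through CD8α cDCs alone. With signals not floored this held for 3 of them, as the differences from the next population missed the threshold for Ccr9 (adjusted p = 0.0574 from limma), Ccr6 (0.205) and Ccr2 (0.152). Ccr7, Cxcr3 and Cx3cr1 were each shared, at levels that did not pass the test, by the leading populations. All 9 receptors differed between populations by limma's F test (adjusted p from 8.66e-10 for Xcr1 to 4.43e-05 for Cxcr4), as did 82.9% of all genes tested. Over the 15 pairs of populations, 90 of the 135 receptor tests passed, which is 66.7%, beside 41.4% of the tests over all genes.

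**Figure D1:**
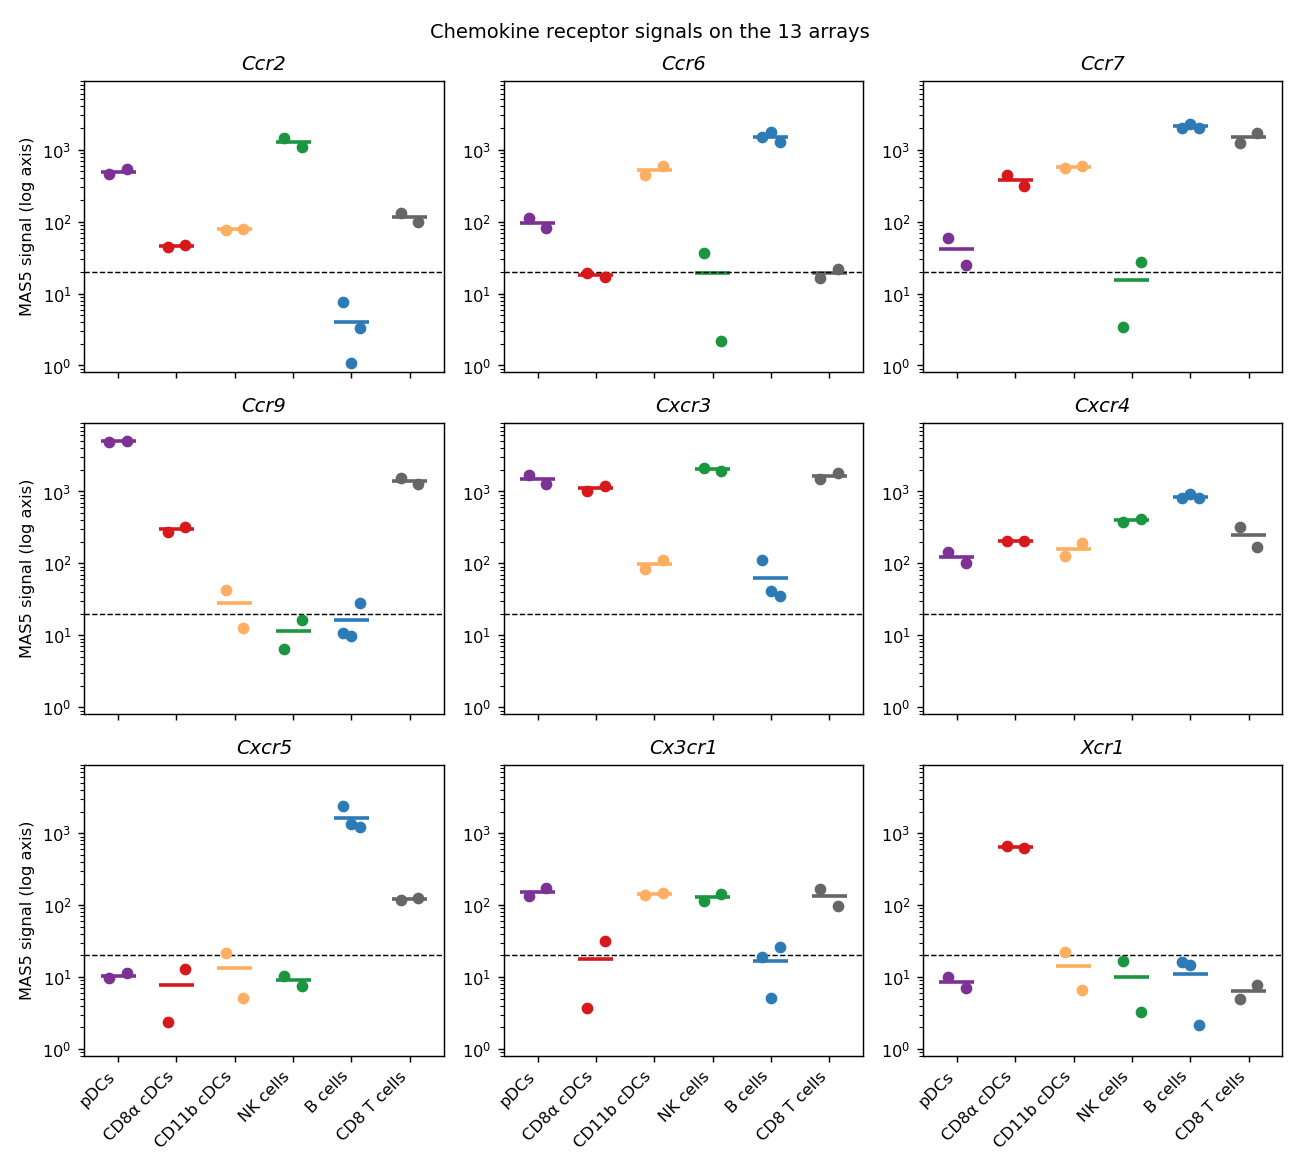
MAS5 signal (log axis) of the 9 chemokine receptors on each of the 13 arrays, by population; points are arrays, horizontal bars are population means and the dashed line is the floor of 20. Xcr1 stood above the floor on both CD8α cDC arrays (673 and 633), whereas Cxcr4 was above 100 on all 13 arrays.

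RefSeq promoter windows (build GRCm38.p6) were at hand for 7 of the 9 receptors, 8 windows in all, and the 250 bases before the transcription start are shown for 4. Ccr9 and Xcr1 are shown because they lie in the same receptor gene cluster of chromosome 9 and were highest in different DC subsets, and Ccr6 (the first of 2 starts) and Cxcr3 because their patterns were the most opposed of all receptor pairs. Capitals mark matches on either strand to the E-box letters CANNTG, the ETS letters AGGAAG, the RUNX letters TGTGGT and the TATA letters TATAAA; adjoining or overlapping matches run together.
Ccr9, chr9:123766961-123767210, plus strand: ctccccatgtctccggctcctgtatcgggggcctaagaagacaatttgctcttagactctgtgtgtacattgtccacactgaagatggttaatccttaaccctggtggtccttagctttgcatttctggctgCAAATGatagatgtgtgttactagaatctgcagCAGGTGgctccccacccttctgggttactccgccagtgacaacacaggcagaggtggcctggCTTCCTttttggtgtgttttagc
Xcr1, chr9:123862030-123862279, minus strand: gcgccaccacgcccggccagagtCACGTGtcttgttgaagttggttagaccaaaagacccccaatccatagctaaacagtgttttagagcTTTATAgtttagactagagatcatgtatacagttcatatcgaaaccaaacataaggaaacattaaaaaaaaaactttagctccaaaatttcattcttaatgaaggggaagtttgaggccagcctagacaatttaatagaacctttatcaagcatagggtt
Ccr6, chr17:8235793-8236042, plus strand: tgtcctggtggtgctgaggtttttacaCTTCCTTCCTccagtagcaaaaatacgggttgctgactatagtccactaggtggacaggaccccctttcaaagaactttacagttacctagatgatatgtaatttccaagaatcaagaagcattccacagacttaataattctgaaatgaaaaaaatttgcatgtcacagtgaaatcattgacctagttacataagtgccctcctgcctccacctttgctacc
Cxcr3, chrX:101734148-101734397, minus strand: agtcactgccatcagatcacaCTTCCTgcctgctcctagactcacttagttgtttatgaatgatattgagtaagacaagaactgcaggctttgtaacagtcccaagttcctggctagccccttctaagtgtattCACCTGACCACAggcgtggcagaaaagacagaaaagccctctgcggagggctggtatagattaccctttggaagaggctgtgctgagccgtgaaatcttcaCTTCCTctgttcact
The Ccr9 window held 2 E-box matches and 1 ETS match, the Xcr1 window 1 E-box and 1 TATA match, the Ccr6 window 2 overlapping ETS matches, and the Cxcr3 window 2 ETS matches and adjoining E-box and RUNX matches. Of all 32851 RefSeq windows of this length, 66.2% held the E-box letters, 29.5% the ETS letters, 14.0% the RUNX letters and 12.4% the TATA letters. A match describes letters and is not shown to be a binding site.

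Among the receptors that direct cells within lymphoid organs, Ccr7 was high in B and CD8 T cells, intermediate in both cDC subsets and low in pDCs and NK cells. Ccr7 binds CCL19 and CCL21 and guides T cells and DCs into the T cell zones. Its signals were 2027, 2309 and 2001 on the B cell arrays and 1247 and 1713 on the CD8 T cell arrays. CD11b cDCs had 556 and 592, CD8α cDCs 442 and 316, pDCs 59.1 and 25.0, and NK cells 3.47 and 27.4. The arrays of neighbouring populations in this order did not overlap, apart from pDCs and NK cells. The difference of CD8 T cells from CD11b cDCs was 1.35 ± 0.35 (log2 ± SE, adjusted p = 0.0107 from limma), and it missed the threshold without CD11b cDC replicate 1 or CD8 T cell replicate 2. CD8α cDCs exceeded pDCs by 3.28 ± 0.35 (9.73-fold, adjusted p = 2.83e-05 from limma). B and CD8 T cells (0.53, adjusted p = 0.221 from limma), CD11b and CD8α cDCs (0.62, adjusted p = 0.191) and pDCs and NK cells (0.72, adjusted p = 0.133) did not differ beyond their spread. The summed B cell markers (4 genes) were 336 to 395 in CD8α cDCs and 349 to 353 in CD11b cDCs, against 14540 to 20390 in B cells, with Cd79a under 20 and Ms4a1 at 313 and 142. The summed CD8 T cell markers (5 genes) were 57.6 to 70.6 and 163 to 170, against 9100 to 10880 in CD8 T cells, with Cd3d under 20 in both subsets and Cd5 at 153 in CD11b cDCs. Their part in the Ccr7 signals of cDCs was not tested.

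Cxcr5 was a B cell transcript with a further, lower level in CD8 T cells. It binds CXCL13 and brings cells into B cell follicles. The B cell arrays had Cxcr5 signals of 2366, 1364 and 1204, and the CD8 T cell arrays 119.5 and 125. All 8 DC and NK cell arrays lay at or near the floor, between 2.37 and 21.7. B cells exceeded CD8 T cells by 3.68 ± 0.24 (log2 ± SE, 12.8-fold, adjusted p = 5.63e-07 from limma), or by 3.39 without B cell replicate 1, which had the highest signal. CD8 T cells in turn exceeded CD11b cDCs by 2.55 ± 0.27 (adjusted p = 2.11e-05 from limma). The B cell difference from pDCs, CD8α cDCs and NK cells, all below 20 on every array, was at least 78.6-fold. The summed B cell markers were 177 to 234 in CD8 T cells, against 14540 to 20390 in B cells, with Cd79a at 21.3 and Cd79b at 129, and their part in the Cxcr5 signal of CD8 T cells was not tested.

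Cxcr4 was the 1 receptor of the 9 with a signal of at least 50 on all 13 arrays, and it had the lowest F statistic of the 9 (27.3). Cxcr4 binds CXCL12 and holds leukocytes in bone marrow and lymphoid niches. The B cell arrays had 804, 916 and 803, the NK cell arrays 375 and 419.5, and the CD8 T cell arrays 325 and 168. DC arrays ranged from 102 to 205. All B cell arrays lay above all others, and the DC and CD8 T cell ranges overlapped. B cells exceeded NK cells by 1.08 ± 0.28 (log2 ± SE, 2.12-fold, adjusted p = 0.0101 from limma), a call lost without NK cell replicate 1. pDCs, CD11b cDCs and CD8α cDCs were below NK cells (log2 differences -1.71, -1.34 and -0.95, adjusted p = 0.00115, 0.00512 and 0.0290 from limma). The call for CD8α cDCs was lost without either CD8α cDC array, without either NK cell array, with the replicate block (adjusted p = 0.0515) and without the filter on low signal (0.0965), and that for CD11b cDCs without CD11b cDC replicate 1 (adjusted p = 0.0521 from limma). NK and CD8 T cells were not separated (0.76, adjusted p = 0.0700 from limma) unless CD8 T cell replicate 1 was left out (1.24, adjusted p = 0.00982). The other neighbours in the order, from CD8 T cells through CD8α and CD11b cDCs to pDCs, did not differ beyond their spread. Across this order, pDCs were below CD8 T cells (-0.945, adjusted p = 0.0299 from limma).

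Of the receptors of mucosal and epithelial homing, Ccr9 was highest in pDCs, next in CD8 T cells and then in CD8α cDCs, and it was near the floor elsewhere. Ccr9 binds CCL25 and directs cells to the small intestine and the thymus. The pDC arrays had 4877 and 5046, the CD8 T cell arrays 1561 and 1260, and the CD8α cDC arrays 271 and 322. CD11b cDCs (43.0 and 12.6), B cells (9.85 to 28.2) and NK cells (6.51 and 16.2) overlapped one another. The pDC signal exceeded that of CD8 T cells by 1.82 ± 0.32 (log2 ± SE, 3.54-fold, adjusted p = 0.000884 from limma). CD8 T cells exceeded CD8α cDCs by 2.25 ± 0.32 (adjusted p = 0.000206 from limma), and CD8α cDCs exceeded CD11b cDCs by 3.33 ± 0.32 (10.1-fold, adjusted p = 1.03e-05 from limma). Against NK cells, which were below 20 on both arrays, the pDC level was at least 248-fold higher. The summed CD8 T cell markers were 1118 to 1362 in pDCs, against 9100 to 10880 in CD8 T cells. Of the 5 genes Cd8b1 averaged 1191 in pDCs and Cd5 30.5, and Cd3d, Cd3e and Cd3g were below 20. Their part in the Ccr9 signal of pDCs was not tested.

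Ccr6 was highest in B cells and next in CD11b cDCs. It is the receptor of CCL20, a chemokine of epithelia overlying lymphoid tissue. B cell arrays had 1522, 1746 and 1289, CD11b cDC arrays 451 and 599, and pDC arrays 114 and 80.5. The NK cell (36.2 and 2.20), CD8 T cell (16.4 and 21.8) and CD8α cDC arrays (19.2 and 16.9) lay around the floor. B cells exceeded CD11b cDCs by 1.54 ± 0.26 (log2 ± SE, 2.90-fold, adjusted p = 0.000810 from limma), and by 1.53 without B cell replicate 1. CD11b cDCs exceeded pDCs by 2.44 ± 0.29 (5.43-fold, adjusted p = 5.58e-05 from limma) and pDCs exceeded NK cells by 1.83 ± 0.29 (adjusted p = 0.000458 from limma). CD8α cDCs, both of whose arrays were below 20, were at least 26.0-fold below CD11b cDCs (log2 difference -4.70, adjusted p = 3.16e-07 from limma). The summed B cell markers were 349 to 353 in CD11b cDCs and 371.5 to 490.1 in pDCs, with Cd79b at 201.5 and 412 and Cd79a at 1.88 and 6.09. In CD11b cDCs the summed monocyte and macrophage markers (7 of 7 genes on the array) were 6517 to 7748, against 971 to 1517 in the other DCs and at most 340 in lymphocytes, with Csf1r at 3330, Lyz2 at 2128 and Fcgr1 under 20. The summed monocyte and macrophage markers were thus higher in CD11b than in CD8α cDCs, as were Ccr2, Ccr6 and Cx3cr1. The part of these and of the B cell markers in the results was not tested.

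**Figure D2:**
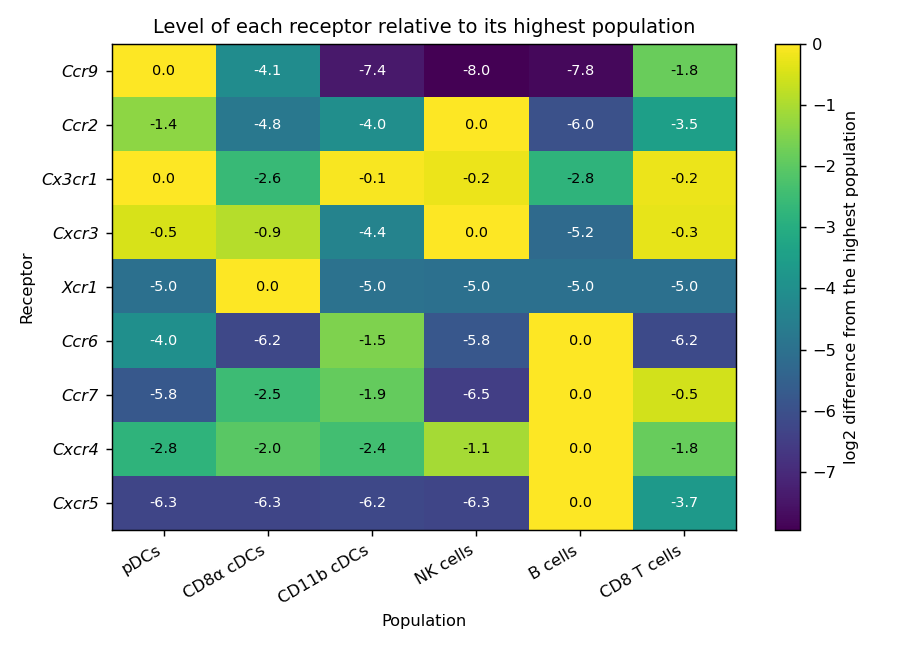
Mean log2 signal of each receptor in each population (columns), floored at 20, as the difference from the population in which that receptor (row) was highest. Xcr1 was 4.96 to 5.03 below its CD8α cDC level in the other 5 populations, and Cx3cr1 was within 0.24 of its pDC level in NK cells, CD11b cDCs and CD8 T cells.

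Of the receptors of inflammatory recruitment, Ccr2 had the most graded pattern, with all 15 pairs of populations past the threshold. It binds CCL2 and is known for the release of monocytes from bone marrow. NK cell arrays had 1463 and 1090, pDC arrays 453 and 537, and CD8 T cell arrays 133 and 97.3. CD11b cDCs had 76.3 and 79.3, CD8α cDCs 45.05 and 47.9, and B cells 7.55, 1.08 and 3.33. No arrays of different populations overlapped. NK cells exceeded pDCs by 1.35 ± 0.20 (log2 ± SE, 2.56-fold, adjusted p = 0.000294 from limma), and pDCs exceeded CD8 T cells by 2.12 ± 0.20 (4.33-fold, adjusted p = 1.01e-05 from limma). CD8α cDCs were at least 2.32-fold above B cells, all of whose arrays were below 20 (adjusted p = 0.000333 from limma). The pair of smallest steps was less firm. CD8 T cells exceeded CD11b cDCs by 0.55 (adjusted p = 0.0479 from limma), a call lost when any 1 of 9 of the 13 arrays was left out. CD11b cDCs exceeded CD8α cDCs by 0.75 (adjusted p = 0.0121 from limma), a call lost without CD8α cDC replicate 1 or CD11b cDC replicate 2, and with another Ccr2 probe set the difference was -0.14 (adjusted p = 0.759).

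Cxcr3 divided the populations into 4 with high and 2 with low signals. It binds the interferon-induced chemokines CXCL9, CXCL10 and CXCL11 and recruits effector lymphocytes. The signals were 1677 and 1270 in pDCs, 2142 and 1915 in NK cells, 1509 and 1823 on the CD8 T cell arrays, and 1010 and 1198 in CD8α cDCs. CD11b cDCs had 83.3 and 112, and B cells 113, 41.3 and 34.7. No difference among the 4 high populations passed the test, with log2 differences of 0.29, 0.19 and 0.41 from one to the next in the order NK cells, CD8 T cells, pDCs and CD8α cDCs (adjusted p = 0.657, 0.791 and 0.512 from limma). CD8α cDCs, the lowest of them, exceeded CD11b cDCs by 3.51 ± 0.45 (log2 ± SE, 11.4-fold, adjusted p = 0.000105 from limma). CD11b cDCs and B cells were not separated (0.83, adjusted p = 0.133 from limma), but without B cell replicate 1, whose signal was the highest of the 3, the difference was 1.35 (adjusted p = 0.000447 from limma).

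Cx3cr1 was likewise shared by 4 populations, and CD8α cDCs and B cells had little of it. It binds CX3CL1, a chemokine that can stay anchored to endothelial and epithelial cells. Its signals were 133 and 173 in pDCs, 138 and 148 in CD11b cDCs, 170 and 96.75 in CD8 T cells, and 116 and 145 in NK cells. CD8α cDCs had 3.70 and 31.5, and B cells 19.05, 5.13 and 26.4. The arrays of the first 4 overlapped and no pair of them differed beyond the spread, with log2 differences between neighbours of at most 0.16 (adjusted p = 0.724 or more from limma). NK cells exceeded CD8α cDCs by 2.37 ± 0.30 (log2 ± SE, adjusted p = 0.000109 from limma), and CD11b cDCs exceeded CD8α cDCs by 2.51 ± 0.30 (adjusted p = 6.96e-05 from limma). The summed NK cell markers (5 of 5 on the array) were 1801 to 3478 in CD8 T cells and 29850 to 30210 in NK cells, with Gzma at 1629 and Eomes at 823 but Ncr1 at 7.17 in CD8 T cells. Their part in the Ccr2, Cxcr3 and Cx3cr1 signals of CD8 T cells was not tested, and nor was that of the GAPDH ratio in the NK cell signals.

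Xcr1 reached a signal of 50 in CD8α cDCs alone, the fewest populations of the 9 receptors. It binds XCL1, which NK cells and activated CD8 T cells release, and is known as a marker of DCs that cross-present antigen. The CD8α cDC arrays had 673 and 633, and the other 11 arrays ranged from 2.14 to 22.0. CD11b cDC replicate 1 was the single array of these 11 above 20. CD8α cDCs exceeded CD11b cDCs by 4.96 ± 0.14 (log2 ± SE, 31.1-fold, adjusted p = 1.33e-09 from limma) and pDCs, CD8 T cells, B cells and NK cells, all below 20 on every array, by at least 32.6-fold. Among these other 5 populations no pair differed in the test, but a difference below the floor could not have been seen.

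Counted by population, with a signal of at least 50 on all of its arrays, CD8 T cells carried 7 of the 9 receptors (not Ccr6 or Xcr1), pDCs 6 (Ccr2, Ccr6, Ccr9, Cxcr3, Cxcr4 and Cx3cr1) and CD11b cDCs 6 (Ccr2, Ccr6, Ccr7, Cxcr3, Cxcr4 and Cx3cr1). CD8α cDCs carried 5 (Ccr7, Ccr9, Cxcr3, Cxcr4 and Xcr1), NK cells 4 (Ccr2, Cxcr3, Cxcr4 and Cx3cr1) and B cells 4 (Ccr6, Ccr7, Cxcr4 and Cxcr5). Of all probe sets, 33.45 to 34.3% reached 50 on a single CD8 T cell array and 32.4 to 33.6% on a B cell array. The share was 30.8 to 31.4% on NK cell arrays and 29.1 to 31.8% on DC arrays. These shares are of all probe sets on 1 array. The receptors were counted by their probe set with the highest mean, on all arrays of a population. The shares therefore do not show whether a receptor count was high, and a like share over all genes is not given here. Probe sets differ in brightness, so these counts at a common cut-off describe detection and do not rank levels between genes. Below 20 on all arrays were Cxcr5 and Xcr1 in pDCs, Ccr6 and Cxcr5 in CD8α cDCs, Ccr9, Cxcr5 and Xcr1 in NK cells, Ccr2 and Xcr1 in B cells, Xcr1 in CD8 T cells, and none in CD11b cDCs. Of all probe sets, 49.1 to 58.3% were below 20 on a single array, which again is not a like measure. B cells were above each of the other 5 populations for 3 of the 9 receptors, beside 2.77% of all genes tested. NK cells were so for 1 (5.73% of all genes), pDCs for 1 (4.74%) and CD8α cDCs for 1 (4.44%). No receptor had its highest mean in CD11b cDCs or CD8 T cells.

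Within the DCs, pDCs differed from the mean of both cDC subsets in 6 of 9 receptors (36.8% of all genes tested). Ccr9, Ccr2, Cxcr3 and Cx3cr1 were higher in pDCs, by 5.74, 3.04, 2.16 and 1.34 (log2), beside 17.7% of all genes called higher. Ccr7 and Xcr1 were lower, at -3.59 and -2.55, beside 19.1% called lower. Some of these calls came from 1 cDC subset. In Cxcr3, pDCs were not separated from CD8α cDCs (0.41, adjusted p = 0.512 from limma). In Cx3cr1 and Xcr1 they were not separated from CD11b cDCs (0.08 and -0.07, adjusted p = 0.875 and 0.738 from limma). The mean of both cDC subsets hid their own differences: Ccr6, with a log2 difference of -0.09 in this contrast, was 5.43-fold higher in CD11b cDCs than in pDCs and at least 4.78-fold lower in CD8α cDCs than in pDCs. CD8α and CD11b cDCs differed in 6 of 9 receptors, beside 23.7% of all genes. Ccr9, Cxcr3 and Xcr1 were higher in CD8α cDCs (11.2% of all genes called higher), and Ccr2, Ccr6 and Cx3cr1 in CD11b cDCs (12.6% called lower). pDCs taken singly differed from CD8α cDCs in 6 receptors (37.4%) and from CD11b cDCs in 5 (32.2%). Of the 6 DC arrays 5 shared a scan day. With scan day as a fixed term, which leaves CD11b cDC replicate 1 without weight, all of these calls between CD8α and CD11b cDCs held but that of Ccr2 (-0.77, adjusted p = 0.0726 from limma).

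Between DCs and lymphocytes as families, each the mean of 3 populations, 5 of 9 receptors differed, beside 63.6% of all genes tested. Ccr9 and Xcr1 were higher in DCs, by 2.03 and 1.70 (log2, adjusted p = 2.64e-06 and 1.65e-08 from limma), beside 31.4% of all genes. Cxcr5, Cxcr4 and Ccr7 were lower, at -2.95, -1.44 and -1.04 (adjusted p = 3.31e-08, 3.20e-05 and 0.000913 from limma), beside 32.2% of all genes. The median difference was -0.08 over the receptors and -0.02 over all genes. None of the 5 was a difference shared by all members of a family: Ccr9 was higher in CD8 T cells than in both cDC subsets, Ccr7 was lower in NK cells than in both, Xcr1 was below 20 in pDCs, Cxcr5 was below 20 in NK cells, and Cxcr4 was not separated between CD8 T cells and CD8α cDCs.

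**Figure D3:**
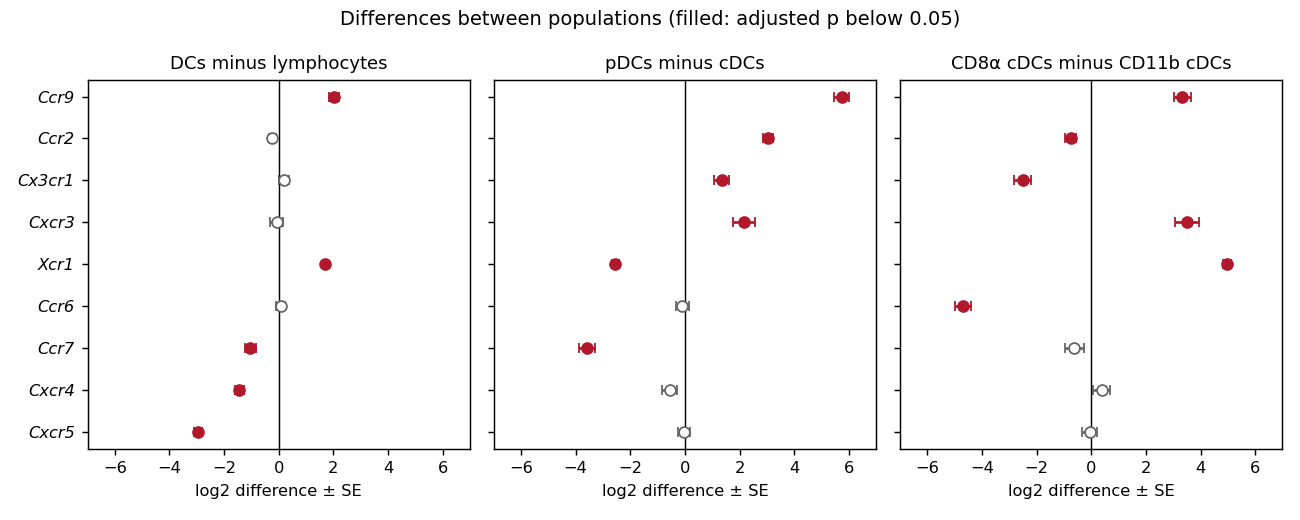
Log2 differences ± SE of the 9 receptors between DCs and lymphocytes, pDCs and both cDC subsets averaged, and CD8α and CD11b cDCs; filled points passed the threshold of 0.05 after adjustment. Ccr6 lay near 0 in the first panels and at -4.70 between the cDC subsets.

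Among the lymphocytes, NK and B cells differed in 7 receptors (39.9% of all genes tested), B and CD8 T cells in 7 (36.1%) and NK and CD8 T cells in 4 (38.8%). Ccr2 was higher in NK than in CD8 T cells by 3.47 (log2), whereas Ccr7, Ccr9 and Cxcr5 were lower by at least 62.4-, 70.1- and 6.12-fold, since 1 or both NK cell arrays were below 20. Between single DC and lymphocyte populations, B cells differed from pDCs in 8 receptors (42.2%), from CD8α cDCs in 8 (48.9%) and from CD11b cDCs in 6 (43.0%). NK cells differed from pDCs in 4 (43.7%), from CD8α cDCs in 6 (49.0%) and from CD11b cDCs in 5 (43.8%). CD8 T cells differed in 6 from pDCs (43.5%), in 6 from CD8α cDCs (52.2%) and in 6 from CD11b cDCs (46.9%). Both CD8 T cell arrays had a scan day and a chip lot that no other array had. In every comparison with CD8 T cells, population, scan day and chip lot therefore cannot be told apart.

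Patterns over the 13 arrays were most alike for Cxcr4 and Cxcr5 (Pearson r 0.80 of floored log2 signals), Ccr2 and Cx3cr1 (0.76) and Ccr2 and Cxcr3 (0.73), and most opposed for Ccr6 and Cxcr3 (-0.93) and Ccr2 and Ccr7 (-0.91). The points share populations, so these values describe 6 levels rather than 13 independent ones. Among all genes tested, the nearest to Cxcr5 was Pou2af1, a B cell coactivator of transcription, at r 0.996, with 3209 in B cells and 191 in CD8 T cells. Irf4, a transcription factor of B cells and DCs, was the third nearest to Ccr6 (0.946), with means of 1417 in B cells, 536 in CD11b cDCs and 394 in pDCs. Lgals1, which encodes galectin-1, was nearest to Ccr2 (0.975), with 14090 in NK cells and 9851 in pDCs. Retreg1 was nearest to Ccr7 (0.972), Acsl4 to Ccr9 (0.972), Enpp4 to Cxcr3 (0.954), Ttpal to Cxcr4 (0.959) and Cd7 to Cx3cr1 (0.949). Xcr1 had 32 genes at r 0.99 or more, led by Morn1, Naalad2 and Cltrn, since every gene seen in CD8α cDCs and at the floor elsewhere takes this pattern.

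Xcr1, Ccr9 and Ccr2 belong to a run of receptor genes on mouse chromosome 9, and neighbours in it had different leading populations. In the gene order of GRCm38.p6 the run from Ccr9 to Ccr2 was Ccr9, Fyco1, Cxcr6, Xcr1, Ccr1, Ccr1l1, Ccr3 and Ccr2. Fyco1, which is no receptor, was detected in all 6 populations, with means of 117 to 343. Cxcr6, the neighbour of Xcr1 on the side of Ccr9, had 489 and 501 in CD8 T cells and at most 18.9 on the other 11 arrays. Ccr1, on its other side, had 64.3 and 109 in pDCs, 56.2 on B cell replicate 1 and at most 15.4 on the other 10. Ccr1l1 and Ccr3 were below the signal minimum. The leading populations were thus pDCs for Ccr9, CD8 T cells for Cxcr6, CD8α cDCs for Xcr1, pDCs for Ccr1 and NK cells for Ccr2.

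**Figure D4:**
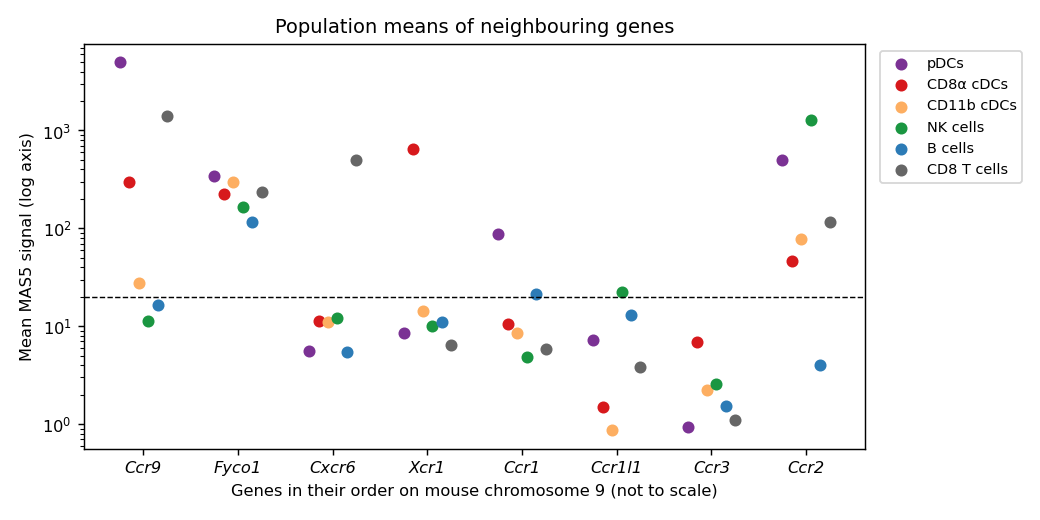
Mean MAS5 signal (log axis) of 8 neighbouring genes in each population, in their order on chromosome 9 and not to scale; the dashed line is the floor of 20, and levels are to be compared within a gene. Cxcr6 and Xcr1 each had a single population with a mean above the floor, CD8 T cells and CD8α cDCs.

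Several probe sets were annotated to Ccr9, Ccr2 and Cx3cr1. All 5 of Ccr9 had their highest mean in pDCs and the next in CD8 T cells. With 1436065_at the pDC (93.2 and 197) and CD8 T cell arrays (139 and 88.7) overlapped, and 1442758_at was low throughout (at most 63.7). The chosen one, 1427419_x_at, has a suffix that marks probes which may also bind other transcripts, and 1421920_a_at, without it, gave 2457 and 2382 in pDCs, 358 and 427 in CD8 T cells and 77.0 and 94.0 in CD8α cDCs. All 4 of Ccr2 had their highest mean in NK cells. With 1421187_at NK cells (54.3 and 210) and pDCs (122 and 103) overlapped, and with 1421188_at CD8α cDCs (33.9 and 43.75) and CD11b cDCs (46.9 and 26.1) overlapped. The other probe set of Cx3cr1, 1450019_at, stayed below 30 on all arrays (at most 29.3, in NK cells) and correlated at 0.24 with the chosen one, so the Cx3cr1 values rest on 1 probe set, as do those of the 6 receptors with a single one.

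**Figure D5:**
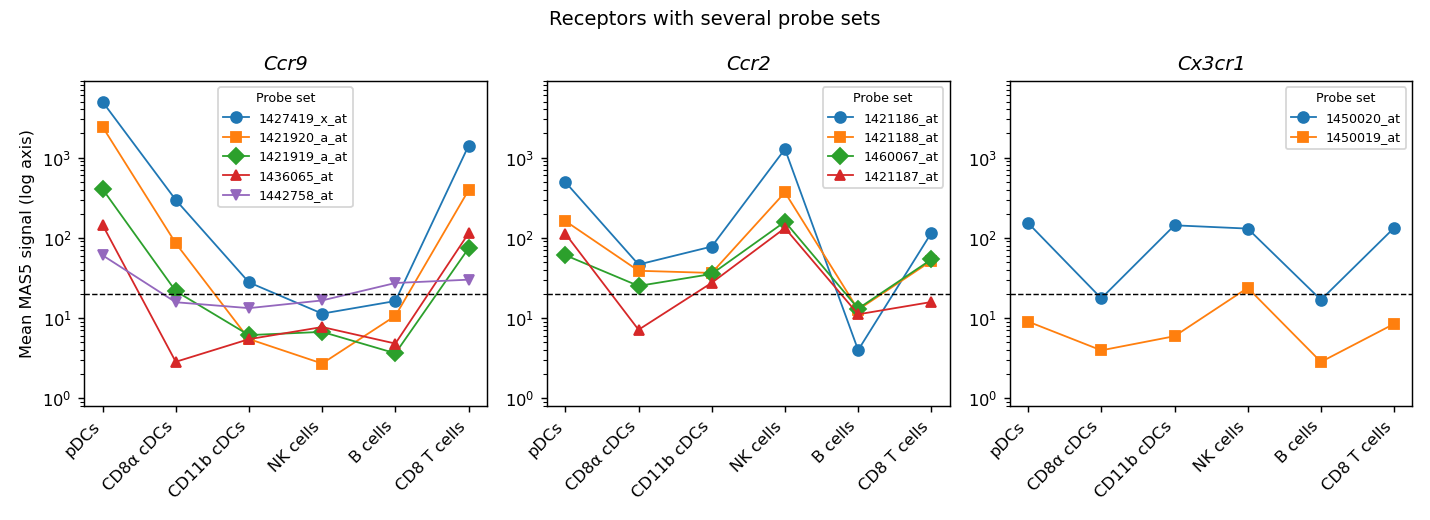
Population means of the MAS5 signal (log axis) for each probe set of Ccr9, Ccr2 and Cx3cr1; each line is a probe set, lines join populations as a guide and the dashed line is the floor of 20. The Ccr9 probe sets had their highest mean in pDCs and the Ccr2 probe sets in NK cells.

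Of 14 further chemokine receptor genes with a probe set, 5 reached the signal minimum. Each of these had 1 population above the other 5, beside 25.0% of all genes tested. A gene that is low in most populations passes the minimum only through the population where it is high, so the filter favoured this pattern in advance. Cxcr6, the receptor of CXCL16, was highest in CD8 T cells (495 ± 8.63, n = 2). Ccrl2, which binds chemerin and does not signal, had 1161 and 1160 in CD11b cDCs and at most 438 elsewhere. Cmklr1, the signalling chemerin receptor, averaged 160 ± 27.4 in NK cells (n = 2), and Ackr1, an atypical receptor that takes up chemokines, 159 ± 47.2 in CD11b cDCs (n = 2). Between DCs and lymphocytes 2 of the 5 were higher and 2 lower, beside 31.4% and 32.2% of all genes, and between pDCs and cDCs 1 was higher and 2 lower, beside 17.7% and 19.1%.

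Of 15 ligands of the 9 receptors, 13 had a probe set and 3 reached the signal minimum. Cxcl9, a ligand of Cxcr3, had 2965 and 3500 in CD8α cDCs, 254 and 332 in CD11b cDCs and at most 30.6 on the other arrays (adjusted p = 9.54e-10 from limma's F test). The CD8α cDCs that carried the highest Cxcl9 thus also carried its receptor Cxcr3 at 1104 ± 133 (n = 2), while CD11b cDCs had Cxcr3 at 97.7 ± 20.4 (n = 2). Xcl1, the ligand of Xcr1, had 671 and 897 in NK cells, 155 and 99.3 on the CD8 T cell arrays and at most 31.65 on the DC and B cell arrays (adjusted p = 1.89e-08 from limma's F test), and Xcr1 itself was below 20 in both of these lymphocytes. Cxcl10, also a ligand of Cxcr3, ranged from 124.5 to 128 in CD8α cDCs, and from 3.36 to 122 elsewhere. Cxcl9 was higher in DCs than in lymphocytes (31.4% of all genes called higher) and lower in pDCs than in cDCs (19.1% called lower). Xcl1 was lower in DCs than in lymphocytes (32.2% called lower). Neither difference between DCs and lymphocytes was shared by a whole family. Cxcl9 had only 30.6 and 16.7 in pDCs. Xcl1 had 3.46 to 4.58 in B cells, against 24.6 and 31.65 in pDCs. Cxcl10 passed narrowly in the directions of Cxcl9 (0.92 and -1.86 on the log2 scale, adjusted p = 0.0355 and 0.0177 from limma). Its difference between DCs and lymphocytes missed the threshold without a floor or a filter, with the replicate block and when any 1 of 10 of the 13 arrays was left out (adjusted p up to 0.132), and that between pDCs and cDCs without a floor or a filter and without pDC replicate 2 or CD11b cDC replicate 2 (up to 0.215).

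Of 30 genes of the signalling path downstream of these receptors, 29 had a probe set, 27 were tested and 22 differed by the F test (81.5%, beside 82.9% of all genes). In DCs 9 of the 27 were higher and 4 lower than in lymphocytes, beside 31.4% and 32.2% of all genes (median 0.15, log2, beside -0.02 over all genes). In pDCs 3 were higher and 11 lower than in cDCs, beside 17.7% and 19.1% of all genes (median -0.46, beside -0.002 over all genes). Grk3, a kinase that phosphorylates occupied receptors, had 2051 and 1994 in CD11b cDCs, 299 to 753 in the other DCs and at most 63.8 in lymphocytes. Arrb2, an arrestin that ends receptor signalling, had 1479 and 1195 in NK cells, 257 to 660 in DCs, 595 and 531 in CD8 T cells and 121 to 179.5 in B cells. Pik3r5 and Pik3r6, adaptor subunits of the G protein-activated PI3 kinase, led in different populations: Pik3r5 averaged 1264 ± 190 in NK cells (n = 2) and Pik3r6 267 ± 3.53 in CD11b cDCs (n = 2).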

How the data were processed

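RNA of the 6 sorted spleen populations was amplified in 2 rounds and hybridised to 13 Affymetrix Mouse Genome 430 2.0 arrays by the authors, who computed the deposited linear intensity values with MAS5 at a target intensity of 100. These values were used as deposited, without further normalization, and the smallest of them have no floor. Samples were grouped by their titles. The labels give 100 ng of RNA per array. The array records gave 50 ng for B cell replicates 2 and 3, 89 ng for pDC replicate 2 and no amount for CD8 T cells. All DC arrays shared a chip lot that no other population had, and so did both CD8 T cell arrays. The part of RNA amount and chip lot in the results was not tested. Probe sets were named through the platform annotation, in which 34958 of 45101 had 1 gene, and each gene was represented by its probe set with the highest mean. Genes with a signal of at least 50 on all arrays of at least 1 population were kept (9391). Values were floored at 20 and log2 transformed, which understates differences at low signals.

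One limma model with 6 population means (7 residual degrees of freedom) gave the F test, the 15 pairwise differences and the contrasts of DCs with lymphocytes and of pDCs with cDCs. Tests were two-sided with Benjamini-Hochberg adjustment at a threshold of 0.05, and the script was tested on simulated data. The 9 receptors and the lists of other receptors, ligands, signalling genes and markers were chosen with earlier results of these data known. All 9 receptors were named, with the 3 genes of highest correlation for each (not all are printed) and up to 4 genes of each list by F statistic; Ccr1, the chromosome 9 neighbours, Gzma, Eomes and the other marker genes were named as well. Alternatives varied the normalization, floor, filter, variance model, probe set, adjustment, replicate block and scan day and left out each array. In the setting named as without a floor, signals under 1 were set to 1. Same-numbered arrays deviated from their population means with correlations of -0.20 to 0.18, above 0.1 in 8 of 30 cases. Duplicates deviate by equal and opposite amounts, so each pair without B cells gives the same value for both numbers. The methods place the DC and NK cell duplicates in independent experiments, and this check cannot decide whether equal numbers mark one experiment. Numbers were not taken as pairs in the main model. R 4.3.3, limma 3.58.1, Python 3.11.15, pandas 2.3.3 and matplotlib 3.10.9 were used.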

Additional observations from a re-analysis of the deposited data

How the results depend on the processing

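Of the 31 differences between neighbouring populations that were examined, 18 passed the threshold. Under the 11 planned settings other than leaving out an array, all 18 kept their direction where they could be estimated, except Ccr2 in CD11b against CD8α cDCs, which was -0.14 (log2) with the next Ccr2 probe set. The number of receptors with 1 population above the other 5 was 3 without a floor, against 6, as Ccr9, Ccr6 and Ccr2 dropped out, and 7 of the 18 calls were lost there (3 of Ccr2, 2 of Ccr6, 1 each of Ccr7 and Ccr9); the cause was not tested. At a floor of 50, Ccr7 passed between B and CD8 T cells and between CD11b and CD8α cDCs (adjusted p = 0.0390 and 0.0298 from limma). The Ccr2 difference of CD8 T cells from CD11b cDCs was lost under quantile normalization, median scaling, no floor, no filter, the trended prior, the replicate block and the next probe set, that of Ccr7 between the same populations without a floor or a filter, and the Ccr2 difference of CD11b from CD8α cDCs under quantile normalization, no floor, the fixed scan day and the next probe set. Cx3cr1 in CD8 T against NK cells, not called, turned from -0.015 to 0.001 with scan day as a random block (consensus correlation -0.06). The replicate block gave 87 of 135 receptor tests past the threshold against 90, and changed no neighbouring difference other than that of Ccr2 between CD8 T cells and CD11b cDCs (adjusted p = 0.0772 from limma). Leaving out each array in turn gave 86 to 93 of the 135 tests, 5 to 6 receptors with 1 population above the others, 9 of 9 by the F test, 5 to 6 receptors between DCs and lymphocytes and 6 between pDCs and cDCs. The direction turned in some of these for these uncalled differences: Cxcr3 of CD8 T cells and pDCs (-0.016 to 0.385), Cxcr4 of CD8 T cells and CD8α cDCs (-0.29 to 0.66), and Cx3cr1 of pDCs and CD11b cDCs (-0.11 to 0.27), CD11b cDCs and CD8 T cells (-0.25 to 0.57) and CD8 T and NK cells (-0.42 to 0.39). Leaving out the 3 arrays that went against their sex labels, chosen after seeing the data, changed none of the 17 neighbouring differences it allows. Without a filter 18195 genes were tested and 18.7% of the pair tests passed. The share of probe sets below 20 was 49.1 to 58.3% per array, so differences among populations at the floor could not be seen.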
